A study of Mus musculus with 2 samples.

Results

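Nuclei labelled as leptomeningeal fibroblasts in the injured mouse spinal cord were chosen by 4 genes, Slc7a11, Slc47a1, Slc6a13 and Ranbp3l. The label "Slc7a11-type leptomeningeal barrier fibroblasts" rests on these genes. A nucleus was a member if it held at least 3 unique molecular identifiers (UMIs, counted RNA molecules) summed over these 4 markers and at least 1 UMI over the fibroblast genes Bnc2, Dcn and Col1a2. It could hold at most 2 UMIs over the astrocyte genes Aqp4, Slc1a2 and Gja1, at most 5 over the neuron genes Snhg11, Rbfox3 and Syt1, and at most 2 over the endothelial genes Flt1, Mecom and Cldn5. The rule took 521 of 31743 nuclei that passed the quality limits (at least 500 UMIs, at least 300 detected genes with mitochondrial genes giving under 5% of UMIs). Of these member nuclei, 286 came from the PBS library and 235 from the AEVs library. The levels of the 4 markers and of the 3 fibroblast genes in members are therefore a description and no finding.

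The series measured RNA of single nuclei in the spinal cord of wild-type C57BL/6 mice aged 6 to 8 weeks on day 7 after a contusion. All mice were injured at T10, a thoracic level, by a rod of 5 g and 1 mm in diameter dropped from 6 cm, and all received antibiotics. On 5 days they were injected through the tail vein with 100 µL of either phosphate-buffered saline (PBS) or the same buffer with athlete-derived extracellular vesicles (AEVs, membrane particles released by cells) holding 100 µg of protein. There is 1 library per group, each pooled from 3 mice, and no uninjured group is used here. No difference between the libraries therefore has a replicate check, no test across animals is possible, and no p-value is given. Ranges given in parentheses after a share, level or ratio are 95% intervals for counting error alone, and hold nothing of the spread between mice or preparations. Levels are a gene's UMIs per 1000000 UMIs (CPM), summed over the nuclei named.

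The leptomeninges are the thin inner coverings of brain and spinal cord. The pia lies on the tissue and follows its vessels, and the arachnoid lies outside the fluid-filled subarachnoid space, with an outer layer sealed by tight junctions. Their fibroblasts lay down basement membrane, carry solutes between blood, cerebrospinal fluid and tissue, and make secreted signals such as retinoic acid, and after a contusion fibroblasts also build the collagen-rich part of the scar. Slc7a11 imports cystine in exchange for glutamate and so feeds the synthesis of glutathione, the main thiol antioxidant. Slc47a1 expels organic cations in exchange for protons, Slc6a13 takes up GABA and taurine, and Ranbp3l is a Ran-binding protein that exports Smad proteins from the nucleus.

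In the annotation of the mm10 build (GENCODE M21), Slc7a11 spans chr3:49892526-50443614 on the minus strand and Slc47a1 chr11:61343401-61378345 on the minus strand. Slc6a13 spans chr6:121300227-121337733 and Ranbp3l chr15:8967949-9067335, both on the plus strand. The next gene downstream of Slc47a1 on the same strand is its paralog Slc47a2, 540 bases away, and reads that run on from one into the other cannot be told apart from reads of the second. The bases before the start site of Slc7a11 are shown because this gene names the cells and led the larger of the sets into which the members fell. They are chr3:50443615-50443863 of GRCm38.p6 (mm10), minus strand, from RefSeq, 249 bases that stop before the first base of an annotated exon.
Slc7a11: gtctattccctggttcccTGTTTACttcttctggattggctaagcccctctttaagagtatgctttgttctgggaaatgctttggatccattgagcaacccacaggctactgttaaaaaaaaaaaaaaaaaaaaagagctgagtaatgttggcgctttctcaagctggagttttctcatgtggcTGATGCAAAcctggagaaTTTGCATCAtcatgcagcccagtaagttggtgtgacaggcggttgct
Capitals mark matches to TGATGCAAA, known as the amino acid response element, and to GTAAACA, a forkhead motif, each searched on both strands, as was TGACNNNGC, the antioxidant response element core. TGATGCAAA lay 66 to 58 bases before the start and, on the opposite strand, 48 to 40 bases before it. It occurs in 0.225% of the 32851 mouse promoters of the table, searched alike over the 250 bases before the start, GTAAACA in 3.17% and TGACNNNGC in 10.2%. The promoter table matched 3 of the 4 markers. In Slc6a13 and Ranbp3l TGACNNNGC was found and the other 2 motifs were not, and in Slc7a11 TGACNNNGC was not found in this window. A match is a run of letters and not a measured site.

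The deposited libraries held 15325 PBS and 17055 AEVs barcodes with 82953601 and 81875882 UMIs. Of the barcode sequences, 177 occurred in both libraries, among them those of 2 PBS and 4 AEVs members, and no member shared its barcode with a member of the other library. The members held 892218 and 612298 UMIs. Their depth was greater in the PBS library, with a median of 2856 UMIs per nucleus (565 to 9974) against 2219 (533 to 10224), and medians of 1698 and 1424 detected genes. Free RNA was gauged in nuclei with oligodendrocyte genes, which should lack these transcripts (5124 PBS nuclei with a median of 2406 UMIs and 6040 AEVs nuclei with 2042.5). There Slc7a11 was found in 1.11% of PBS and 0.811% of AEVs nuclei, and each of the other 3 markers in under 0.6%. Of these 3, Slc6a13 was the most common in PBS (0.566%, and 0.232% in AEVs) and Ranbp3l in AEVs (0.298%). In nuclei with neuron genes Slc47a1 was found in 1.08% of PBS and 0.403% of AEVs nuclei and Ranbp3l in 1.05% and 2.20%, the same directions as the members' levels given later. Slc7a11 was found there in 3.86% and 3.26%, the other direction from the members, and Slc6a13 in 1.73% and 1.72%, nearly alike. Col1a2, a collagen gene used by the rule, was found in 5.60% and 1.81% of the oligodendrocyte nuclei, and Col1a1 in 4.88% and 0.695%. In the neuron nuclei Col1a2 was found in 9.74% and 3.06% and Col1a1 in 10.3% and 1.74%. In both these classes background collagen RNA was more common in the PBS library. In nuclei with astrocyte genes Slc7a11 was found in 21.6% and 19.3%, Col1a2 in 31.4% and 30.3% and Col1a1 in 16.9% and 11.8%. There free RNA and the nuclei's own transcripts were not told apart. The scar-type collagen genes of the members are to be read beside these values.

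The label was checked against the leading genes. Against all other nuclei of the same library the members were led by Slc47a1 (759 CPM against 4.78 in PBS and 547 against 1.84 in AEVs) and Slc47a2 (105 against 0.747 and 55.5 against 0.222). Transcription factors of embryonic meninges and mesenchyme were among the 20 leading genes, with Foxd1 at 165 against 3.50 CPM and 189.5 against 1.53, beside Foxc2, Tbx15, Osr1 and Prdm6. Transporters made up a further group, with Slc6a20a, an importer of proline, at 604 against 10.5 CPM and 1027 against 10.4, beside Slc26a7 and Slc13a4, which carry anions such as sulfate. Aldh1a2, which makes retinoic acid, stood at 179 against 4.36 CPM and 318.5 against 2.85, and Igf2, a growth factor of the meninges, at 715 against 16.2 and 585 against 8.99. Wnt4, Tspan11, Fgfbp1, Nrk, the unnamed transcript Gm20756 and the remaining markers completed the 20. Foxd1, Tbx15 and Igf2 are in the list of leptomeningeal fibroblast genes used below, and Aldh1a2 is in the inner arachnoid list. Slc47a1, Slc47a2, Slc26a7, Tbx15 and Tspan11 were found mostly in members with little Slc7a11. Most of these members fell in cluster 4 below, which also had 4 of 7 dural markers raised. The label holds for only some of the members. Slc7a11 was found in 151 of 286 PBS members (52.8%, 46.8 to 58.7) and in 165 of 235 AEVs members (70.2%, 63.9 to 76.0), and the rest were members without a single UMI of it.

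Slc7a11 and Slc47a1 were seldom found in the same nucleus. Both were found together in 13 PBS and 5 AEVs members, 4.55% (2.44 to 7.65) and 2.13% (0.694 to 4.90), though a rule on the sum of markers admits nuclei with few of each. A nucleus was put on the Slc47a1 side if its Slc47a1 UMIs outnumbered the sum of the other 3 markers, and otherwise on the Slc7a11 side, a division made after the values were seen. In PBS 101 members lay on the Slc47a1 side and 185 on the Slc7a11 side, and in AEVs 51 and 184. On the Slc47a1 side all nuclei together held 2 UMIs of Slc7a11 in PBS and 1 in AEVs, against 811 and 916 on the other side. The cut itself keeps this count low, so it describes the sides and supports nothing. Slc7a11 with Slc6a13 was found in 36.4% and 52.3% of members, and Slc7a11 with Ranbp3l in 23.1% and 34.9%. All 4 markers were found together in 1 PBS and 3 AEVs nuclei. The Slc47a1 side was the deeper, with median UMIs of 3216 and 2936 against 2577 and 2034.5.

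**Figure D1:**
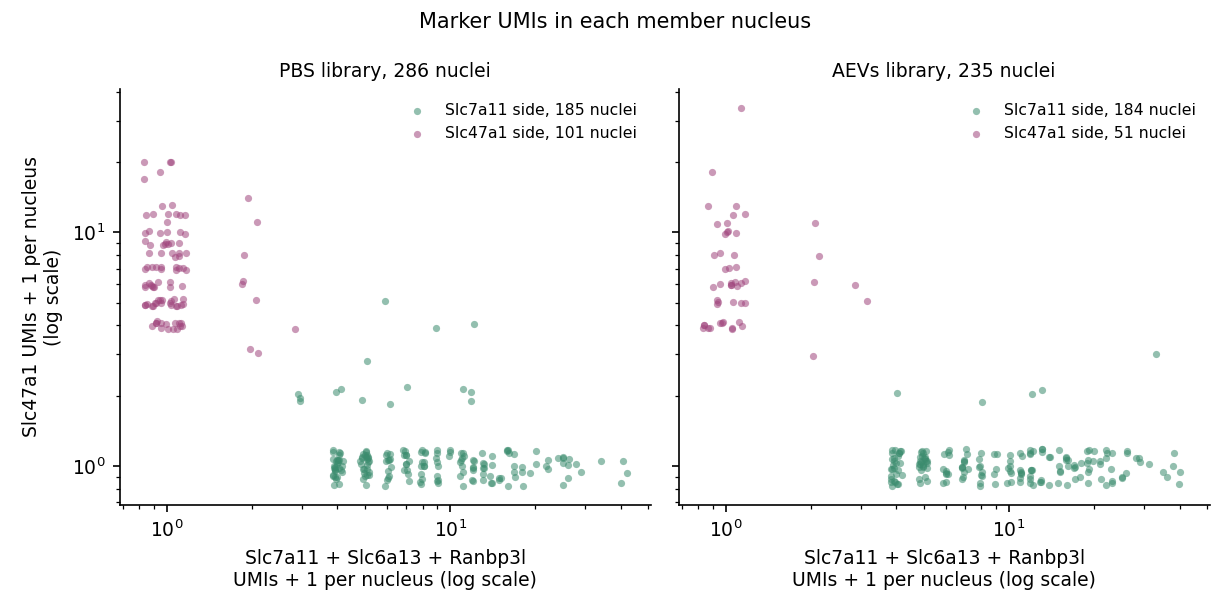
UMIs per member nucleus of Slc47a1 (vertical axis, log scale, 1 added) against the summed UMIs of Slc7a11, Slc6a13 and Ranbp3l (horizontal axis, log scale, 1 added), with the PBS library on the left and the AEVs library on the right and a little jitter added to part the points. Each point is a nucleus. The 101 PBS and 51 AEVs nuclei of the Slc47a1 side and the 185 and 184 nuclei of the Slc7a11 side are cut by the plotted values themselves. Few points lie away from both the left and the lower edge.

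The genes that went with each side, named after their values were seen, were alike in both libraries. With Slc7a11 went the proline importer Slc6a20a, with 538 UMIs on the Slc7a11 side and 1 on the Slc47a1 side in PBS, and 626 and 3 in AEVs. Aldh1a2 had 160 UMIs against 0 in PBS and 195 against 0 in AEVs. Wnt4 had 128 against 1 and 157 against 1, and Vtn, which encodes the matrix protein vitronectin, had 367 against 4 and 528 against 3. Cemip, which is needed to break down hyaluronan, had 696 against 15 and 334 against 1, and Lama1, a laminin chain of the pial basement membrane, had 198 against 4 and 171 against 0. With Slc47a1 went its neighbour Slc47a2, with 94 UMIs on the Slc47a1 side and 0 on the Slc7a11 side in PBS, and 33 and 1 in AEVs. Slc4a10, which exchanges sodium and bicarbonate, had 1610 against 54 and 640 against 32, and Slc26a7 had 99 against 0 and 104 against 4. The transcription factor gene Tbx15 had 105 against 5 and 53 against 1, Bmper, a regulator of BMP signals, had 169 against 4 and 62 against 7, and Rspo3, which strengthens Wnt signals, had 166 against 15 and 155 against 7. The sides were cut by the 4 markers, but these genes were chosen for their difference between the sides. Their direction is therefore given by the choice and supports nothing. For Slc47a2, run-on reads from Slc47a1 cannot be told apart from its own, as given above.

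Clustering of the members alone gave 8 clusters, numbered 0 to 7. These were formed from the same UMIs, so their leading genes describe them and are not tested. Before the results, 2 of them stand apart. Cluster 3 (9 PBS and 5 AEVs nuclei) was led by macrophage genes such as Gpnmb at 2600 CPM, with 6 of 9 microglia and macrophage markers raised at least 2-fold over the other members. Cluster 7 (15 and 16 nuclei) had all 7 oligodendrocyte markers raised, with St18, a transcription factor gene of that list, at 1284 CPM, and the greatest median depth, 4993 UMIs. Of all 9648 genes with at least 20 UMIs in members, 3.61% were raised by the same rule in cluster 3 and 6.12% in cluster 7. The doublet caller Scrublet marked 4 PBS and 3 AEVs nuclei of cluster 3 and 2 and 10 of cluster 7, against 1 PBS and 4 AEVs nuclei in the other 6 clusters together. Both clusters were kept, as the rule includes them, and main results are also given without them.

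In the other clusters, the genes given were chosen after their values were seen. Cluster 1 (33 PBS and 44 AEVs nuclei) was inner arachnoid-like, with 7 of 8 markers of that layer raised, 1 of them the rule's Slc6a13. By the same rule 4.08% of 9648 genes with at least 20 UMIs in members were raised in cluster 1. In clusters 0, 2, 4 and 5 this share was 4.6%, 4.14%, 6.43% and 2.61%. Cluster 1 held the highest levels of Ranbp3l (3636 CPM), of Ptgds, the prostaglandin D synthase gene (43820 CPM), and of the cation channel gene Trpm3 (30640 CPM). It was led by Mapk4, Dcdc2a and Cyp26b1, whose enzyme clears retinoic acid. Cluster 0 (41 and 49 nuclei) was pial or perivascular-like, with 6 of 11 markers raised, among them Lama1 at 1293 CPM and Abca8a at 392 CPM, and with Slc7a11 at 2345 CPM. It also had 4 of 6 oligodendrocyte precursor markers raised, Pdgfra, Tnr, Lhfpl3 and Vcan, of which fibroblasts share Pdgfra and Vcan. The astrocyte genes Slc1a3 and Gpc5 and the neuron genes Snhg11 and Rbfox1 were raised there too. Cluster 5 (42 and 7 nuclei) was arachnoid barrier-like, with 6 of 13 markers raised. The peptidase gene Dpp4 stood there at 586 CPM, Klf5 at 533 CPM and Fn1, which encodes fibronectin, at 2410 CPM. Cluster 4 (82 and 50 nuclei) held 130 of the 152 nuclei of the Slc47a1 side, with Slc47a1 at 1982 CPM, Slc4a10 at 4387 CPM and Slc7a11 at 6.68 CPM. It was left without a zone name, since the 4 of 7 dural and 3 of 13 arachnoid barrier markers raised in it were not among its 10 leading genes. Its dural list summed to 8913 CPM, the highest of the 8 clusters, with cluster 5 next at 5722 CPM. Of the 15 leptomeningeal fibroblast genes 4 were raised in it too, among them Bnc2 of the rule. Cluster 2 (52 and 52 nuclei) had the highest Slc7a11 level, 2433 CPM, and was led by the chemokine genes Ccl2 and Ccl7, though 1 AEVs nucleus alone held 96.0% of the members' Ccl2 UMIs in that library. It also had 4 of 5 erythroid markers raised, all hemoglobin genes, at a summed 1400.0 CPM. Cluster 6 (12 and 12 nuclei) was led by Ebf2 and had Apod at 39890 CPM and Dcn at 9443 CPM. It had 4 of 11 pial and perivascular markers raised, against 2.26% of all genes, at a summed 6115 CPM (5112 CPM in cluster 0). Of 7 oligodendrocyte markers 2 were raised in cluster 6. These were Mbp, its 3rd leading gene, at 5335 CPM, and Mobp at 706 CPM, against 867 CPM for Mobp in cluster 7. The oligodendrocyte list summed to 6171 CPM in cluster 6 and 10940 CPM in cluster 7. The neuron genes Snhg11 and Rbfox1 were raised in cluster 6 too. Some of the genes that lead clusters 4 and 5, such as Slc47a1 and Cdh1, themselves differed between the libraries, so the sizes of clusters are counts and are not compared.

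**Figure D2:**
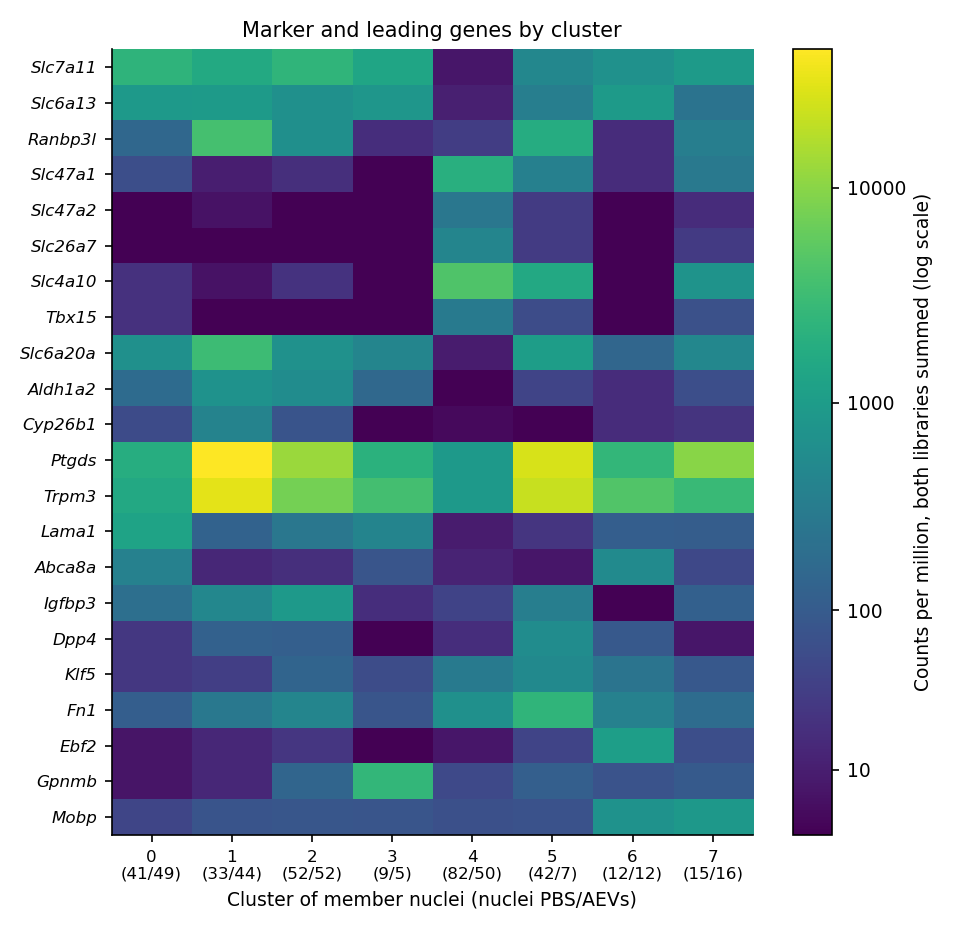
Level of 22 marker and leading genes (rows) in the 8 clusters of member nuclei (columns, with PBS and AEVs nuclei in parentheses), as CPM of the UMIs of both libraries summed, by colour on a log scale. Slc47a1, Slc47a2, Slc26a7 and Slc4a10 are brightest in cluster 4, where Slc7a11 is darkest at 6.68 CPM, and Ptgds and Trpm3 are brightest in cluster 1.

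Members made up a smaller share of the AEVs library at the limit of the rule. They were 286 of 14794 nuclei in PBS, 1.93% (1.72 to 2.17), and 235 of 16949 in AEVs, 1.39% (1.22 to 1.57), a ratio of shares of 0.717 (0.601 to 0.855). The Slc47a1 side held 0.683% (0.556 to 0.829) of PBS nuclei and 0.301% (0.224 to 0.395) of AEVs nuclei, a ratio of 0.441 (0.308 to 0.623). The Slc7a11 side held 1.25% and 1.09%, a ratio of 0.868 (0.704 to 1.07) whose interval includes equal shares. Of the members, 35.3% in PBS and 21.7% in AEVs lay on the Slc47a1 side, a ratio of 0.615 (0.430 to 0.869). Since Slc47a1 itself defines that side, fewer such nuclei and nuclei that fell below the limit cannot be told apart, and within the side Slc47a1 stood at 1812 CPM in PBS and 1949 CPM in AEVs. The ratio depended on how many marker UMIs were asked for. It was 0.702 at a minimum of 2, 0.764 (0.605 to 0.964) at 6, 0.956 at 9 and 1.18 (0.756 to 1.86) at 15, where 37 PBS and 50 AEVs nuclei were left. Nuclei just outside and just inside the limit of 3 held less RNA of the type's genes than those well inside it. The list of 15 leptomeningeal fibroblast genes was summed without the 3 fibroblast genes of the rule and without Col1a1. In PBS it came to 8156 CPM in the 87 nuclei with 2 marker UMIs. With 3 marker UMIs it came to 12250 CPM in 50 nuclei, and with 4 or more to 15600 CPM in 236. In AEVs these sums were 8634 CPM in 65 nuclei, 7801 CPM in 41 and 21670 CPM in 194. With each nucleus thinned to 1000 UMIs, 150 of 13264 PBS nuclei (1.13%) and 140 of 15395 AEVs nuclei (0.909%) met the rule, a log2 ratio of -0.31 (-0.66 to 0.03).

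The share also moved with collagen RNA. At least 3 UMIs over the scar genes Col1a1, Col3a1, Col12a1 and Postn were found in 200 of 286 PBS members, 69.9% (64.3 to 75.2), and in 71 of 235 AEVs members, 30.2% (24.4 to 36.5). Without these nuclei the ratio turned around, to a log2 value of 0.74 (0.35 to 1.13), with more of the remaining members in the AEVs library. Col1a1 alone was found in 77.3% of PBS and 43.0% of AEVs members, against 4.88% and 0.695% of the oligodendrocyte nuclei above. The part of free collagen RNA in these shares was not tested. Without clusters 3 and 7 the log2 ratio of shares was -0.49, against -0.48 with them.

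**Figure D3:**
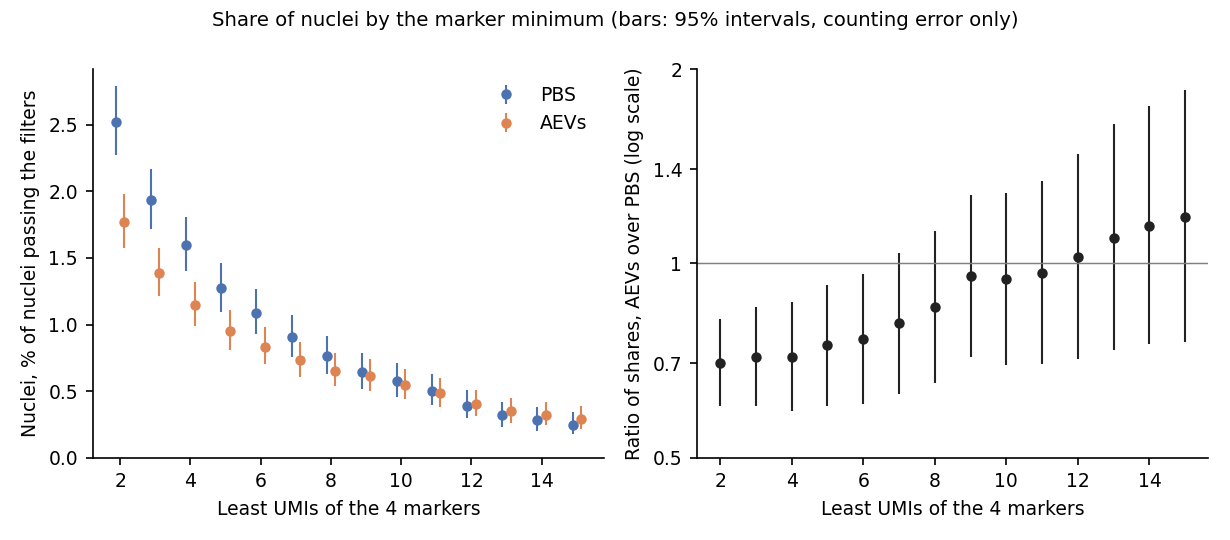
Share of nuclei that met the rule (left, percent of nuclei passing the quality limits, PBS and AEVs) and the ratio of the shares (right, AEVs over PBS, log scale) at each minimum of marker UMIs from 2 to 15, with 95% bars for counting error only. The ratio is 0.717 at the rule's minimum of 3 and 1.18 at 15.

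Within the members, the level of each gene was then set side by side in the 2 libraries. Of 6057 genes that reached 50 UMIs when both libraries were added, 152 were at least 2-fold higher in AEVs (2.51%) and 154 at least 2-fold lower (2.54%). In all other nuclei the same limits took 3.0% and 1.46% of 19265 genes. Without clusters 3 and 7 the counts were 135 and 140, and with the 8 clusters given the same weight in both libraries 164 and 160. The 4 markers lay within 2-fold. Slc7a11 had 813 UMIs in PBS and 917 in AEVs (911 and 1498 CPM), Ranbp3l 549 and 692 (615 and 1130.0 CPM), Slc6a13 335 and 377 (375.5 and 616 CPM) and Slc47a1 677 and 335 (759 and 547 CPM). The first 3 were higher and Slc47a1 was lower in AEVs, as were the shares of members with a UMI of each. After thinning to 1000 UMIs, the shares with Slc7a11 were 41.2% of 279 PBS and 60.5% of 210 AEVs members, and those with Slc47a1 29.8% and 21.4%.

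The 12 genes with the highest ratio follow. Galnt15, an enzyme that starts sugar chains on proteins, had 19 UMIs in PBS and 95 in AEVs, or 21.3 and 155 CPM, a log2 ratio of 2.87 (2.14 to 3.66). Hif3a, a hypoxia-inducible factor subunit that is also raised by glucocorticoids, had 14 and 58 UMIs, or 15.7 and 94.7 CPM, at log2 2.59 (1.73 to 3.55). Igfbp3, which binds insulin-like growth factors, had 129 and 351 UMIs (145 and 573 CPM), a log2 ratio of 1.99 (1.69 to 2.29). Pappa, a protease that cuts such binding proteins, went with it at 48 and 97 UMIs (log2 1.56). Gsn, which encodes the actin-severing protein gelsolin, had 370 and 948 UMIs (415 and 1548 CPM), a log2 ratio of 1.90 (1.73 to 2.08). S100a6, a calcium-binding protein gene, had 449 and 985 UMIs, a log2 ratio of 1.68. Apod, which encodes the lipid carrier apolipoprotein D, had 4557 and 9211 UMIs (5107 and 15040.0 CPM), which is 1.56 (1.51 to 1.61) on the log2 scale. The acute stress regulator Cebpb had 31 and 64 UMIs (log2 1.59). Cd109 (24 and 67 UMIs), Npr3, the clearance receptor of natriuretic peptides (23 and 60), Fbln2, a matrix gene (30 and 67), and Slit3, a secreted guidance cue (55 and 110), had log2 ratios of 2.02, 1.93, 1.70 and 1.54. Gsn was found in 46.9% of PBS and 69.8% of AEVs members. These genes were picked for this ratio, so their direction is given by the choice.

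Of the 12, 5 were at least 2-fold higher in all other nuclei as well. There the log2 ratios were 2.19 for Apod, 2.09 for Cebpb, 2.02 for Hif3a, 1.37 for Galnt15 and 1.04 for S100a6, and 0.26 for Gsn, 0.72 for Igfbp3, -0.00 for Pappa and -0.15 for Slit3. In collagen-rich fibroblast nuclei, described at the end, Gsn had 2.54, Igfbp3 1.74 and Galnt15 4.32, and Npr3 went the other way at -0.46 from 17 and 3 UMIs. On both sides of the members the genes with a ratio on each were higher in AEVs, apart from Slit3, with log2 ratios for Gsn of 1.63 on the Slc7a11 side and 2.44 on the Slc47a1 side. Slit3 had 6 and 3 UMIs on the Slc7a11 side and 49 and 107 on the Slc47a1 side, log2 ratios of -0.74 and 2.22, and 1 nucleus held 20.9% of its UMIs in the library where it was higher. The difference between the sides was not tested.

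**Figure D4:**
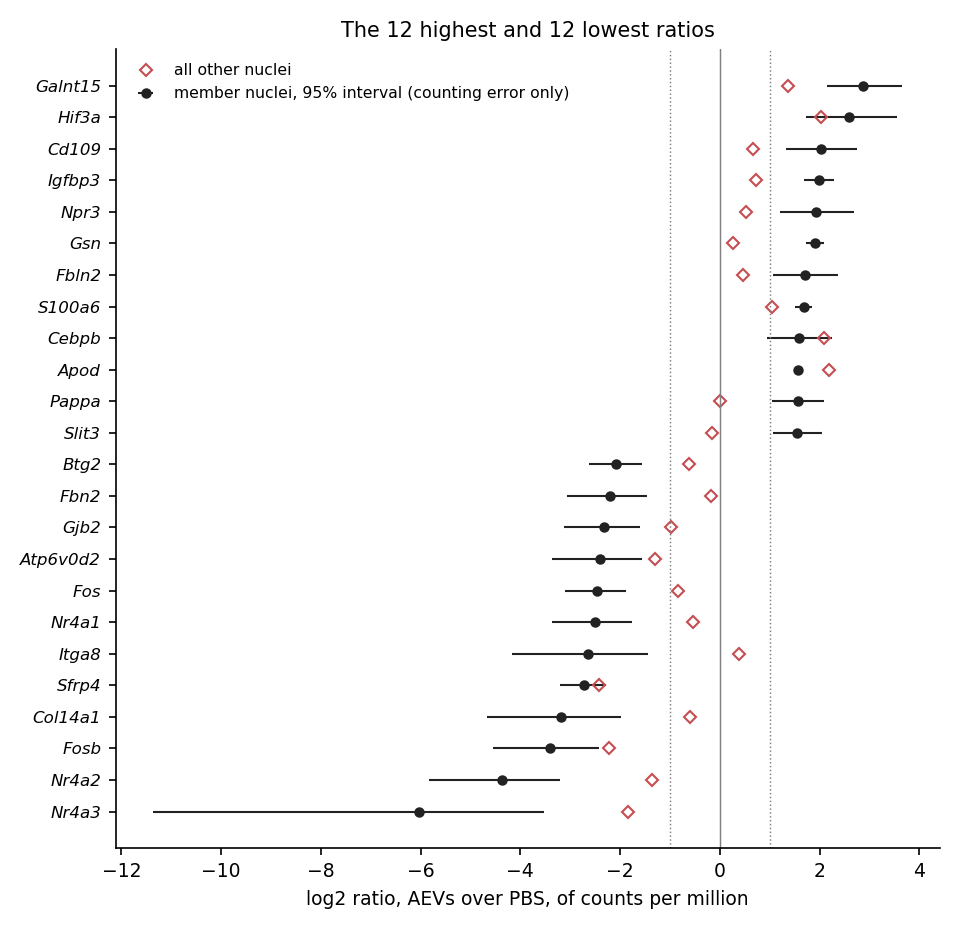
Log2 ratio of CPM, AEVs over PBS, for 24 genes in member nuclei, the 12 at each end of the order of ratios (filled points, with 95% bars for counting error only) and in all other nuclei (open diamonds). Dotted lines mark 2-fold, and the immediate-early genes Nr4a3, Nr4a2 and Fosb lie lowest, at -6.04, -4.36 and -3.40 in members.

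Among the 12 genes with the lowest ratio, 6 were immediate-early genes, which are transcribed within minutes of a stimulus. The nuclear receptor gene Nr4a3 had 96 UMIs in PBS members and 1 in AEVs members, or 108 and 1.63 CPM, a log2 ratio of -6.04 (-11.36 to -3.53). Its relative Nr4a2 had 180 and 6 UMIs (202 and 9.80 CPM), a log2 ratio of -4.36 (-5.83 to -3.21), and was found in 26.2% and 2.55% of members. Nr4a1 had 133 and 16 UMIs, a log2 ratio of -2.51. The AP-1 genes Fosb and Fos had 138 and 9 and 218 and 27 UMIs, log2 ratios of -3.40 and -2.47, and Btg2, which restrains division, had 215 and 35 UMIs and -2.08. All 6 were lower in AEVs on both sides of the members, Nr4a2 with 58 and 3 UMIs on the Slc7a11 side and 122 and 3 on the Slc47a1 side. In all other nuclei the log2 ratios of the 6 ranged from -2.23 for Fosb to -0.53 for Nr4a1, and in collagen-rich fibroblasts Nr4a3 had -5.00 and Nr4a2 -1.55. Other immediate-early genes, named after their values were seen, moved less, with log2 ratios in members of -1.29 for Jun, -1.22 for Egr1 and -0.80 for Junb, and Ier3 (-0.13), Klf4 (-0.17) and Klf2 (0.31) lay near equality.

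Promoters of the 6 were searched for TGACGT, the core of the cAMP response element, on both strands. The 6 were picked for their low ratios, and the other immediate-early genes named above were not searched. TGACGT occurs in 6.47% of 32851 promoters, each searched over 250 bases. It was found in 3 of the 6, Nr4a3, Fos and Btg2, and not in these windows of Nr4a2, Nr4a1 and Fosb. A link of the motif to the ratios was not tested. The 3 sequences are from RefSeq on GRCm38.p6 (mm10), with matches in capitals. Each begins 250 bases before the start and stops before the first annotated exon base, which leaves 98 bases for Nr4a3. They are chr4:48045055-48045152 on the plus strand for Nr4a3, chr12:85473640-85473889 on the plus strand for Fos and chr1:134079156-134079405 on the minus strand for Btg2, where matches on both strands overlap in 1 palindrome.
Nr4a3: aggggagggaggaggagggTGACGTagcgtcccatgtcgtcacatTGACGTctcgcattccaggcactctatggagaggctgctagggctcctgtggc
Fos: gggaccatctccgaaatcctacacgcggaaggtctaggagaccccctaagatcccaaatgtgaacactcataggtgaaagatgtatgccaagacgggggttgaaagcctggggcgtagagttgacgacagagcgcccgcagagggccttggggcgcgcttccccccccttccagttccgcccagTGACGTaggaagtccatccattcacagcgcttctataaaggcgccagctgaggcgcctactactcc
Btg2: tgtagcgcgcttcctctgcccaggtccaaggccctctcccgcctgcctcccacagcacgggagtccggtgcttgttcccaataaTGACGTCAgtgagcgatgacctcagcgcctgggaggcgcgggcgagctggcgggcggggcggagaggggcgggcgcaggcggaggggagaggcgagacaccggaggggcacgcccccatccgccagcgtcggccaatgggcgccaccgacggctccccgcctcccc

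The other 6 of the lowest genes were Sfrp4, Gjb2, Col14a1, Fbn2, Itga8 and Atp6v0d2. Sfrp4, a secreted Wnt antagonist of activated fibroblasts, had 446 UMIs in PBS and 46 in AEVs (499.9 and 75.1 CPM), a log2 ratio of -2.73 (-3.21 to -2.29), close to the -2.42 in all other nuclei. Gjb2, which encodes the gap junction protein connexin 26 of meningeal cells, had 131 and 18 UMIs, a log2 ratio of -2.32 (-3.12 to -1.60), and -0.97 in other nuclei. Col14a1, a collagen that binds fibrils, had 79 and 6 UMIs and -3.18, Fbn2, a fibrillin gene, 108 and 16 UMIs and -2.21, and Itga8, an integrin chain gene, 55 and 6 UMIs and -2.65. In other nuclei Fbn2 had -0.18 and Col14a1 -0.59, and Itga8 went the other way, at 0.38 there and 0.59 in collagen-rich fibroblasts. Atp6v0d2, a proton pump subunit gene of phagocytes and osteoclasts, had 100 and 13 UMIs, but 1 PBS nucleus held more of its UMIs than all other PBS members together. Without clusters 3 and 7 the log2 ratio of Atp6v0d2 went from -2.40 to 0.71, while those of the other 11 stayed between -5.91 and -2.03.

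Gene lists of the meningeal zones were compared next, taking genes for which the members of the 2 libraries held 20 UMIs or more. Of all 9648 such genes, 5.48% were at least 2-fold higher in AEVs and 4.03% at least 2-fold lower, and their median log2 ratio was 0.09. On the Slc7a11 side alone these shares were 6.29% and 4.52% of 8002 genes, and on the Slc47a1 side 6.6% and 7.31% of 5489. Of 7 inner arachnoid genes, 1 of them the marker Slc6a13, 2 were 2-fold higher and none lower, with a median of 0.71. Wnt6 had 62 and 86 UMIs (69.5 and 140.5 CPM, log2 ratio 1.02) and Aldh1a2 160 and 195 (0.83), while Igfbp2, which binds insulin-like growth factors, had 818 and 377 (-0.57). The median of this list was 0.47 on the Slc7a11 side and -0.90 over the 3 genes measured on the Slc47a1 side. Of 6 dural genes, 4 were 2-fold lower and none higher, with a median of -1.14. Clec3b, which encodes tetranectin, had 208 and 34 UMIs (233 and 55.5 CPM), a log2 ratio of -2.07 (-2.64 to -1.54), and Fxyd5, a modulator of the sodium pump, 388 and 123 UMIs (-1.11). The dural median was -0.99 on the Slc7a11 side and -0.32 over 4 genes on the Slc47a1 side. Clec3b lay almost wholly on the Slc7a11 side, with 207 UMIs against 1 in PBS and 34 against 0 in AEVs. Of 9 arachnoid barrier genes, 1 was higher and 1 lower. The adhesion gene Cdh1, which encodes E-cadherin, had 83 and 23 UMIs (-1.31), the drug exporter gene Abcb1a 262 and 94 (-0.94), and Cldn11, a tight junction gene, 317 and 278 (0.35). None of 10 pial and perivascular genes passed 2-fold, with a median of 0.11.

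Transporters did not move together. Of 31 solute carrier genes apart from the markers, 3 were at least 2-fold higher and 4 lower, with a median log2 ratio of -0.11. Slc6a6, the taurine importer, had 61 and 90 UMIs (1.10) and Slc39a14, a zinc and manganese importer, 141 and 45 (-1.10). Slco1c1, a carrier of thyroid hormone, had 24 and 3 UMIs (-2.46, -4.83 to -0.74). Slc4a10, of the Slc47a1 side, had 1664 and 672 UMIs (-0.76). Around Slc7a11, 24 genes of cystine, glutathione and iron handling had a median of 0.38, with 5 at least 2-fold higher and none lower. Gstm1, a glutathione transferase gene, had 44 and 78 UMIs (49.3 and 127 CPM, 1.37, 0.82 to 1.94), and G6pdx, which supplies NADPH, 13 and 20 (1.16). Nfe2l2, which encodes the antioxidant regulator NRF2, had 150 and 62 UMIs (-0.73), and Slc3a2, the partner chain of the Slc7a11 protein, named after its values were seen, 165 and 115 (0.02). Of 13 retinoic acid genes, none was 2-fold higher and 1 was lower. The receptor gene Rarb had 305 and 112 UMIs (-0.90) and Dhrs3, which turns retinaldehyde back into retinol, 157 and 53 (-1.02), against Aldh1a2 above and Cyp26b1 at 55 and 61 (0.69).

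Of 19 genes of the scar matrix, 6 were at least 2-fold lower in AEVs members and 1 higher, with a median log2 ratio of -0.82. Col1a1 had 1154 UMIs in PBS and 312 in AEVs (1293 and 509.6 CPM), a log2 ratio of -1.34 (-1.53 to -1.16), and in other nuclei -2.87. Postn, which encodes periostin, had 46 and 8 UMIs (-1.98). Ccn2, a matricellular growth factor gene, was higher, with 286 and 401 UMIs (1.03, 0.81 to 1.25), and Thbs2 had 84 and 86 (0.58). Free Col1a1 RNA was also lower in AEVs, as given above, and its part in the members' levels was not tested. Of 16 basement membrane genes, 2 were lower and 1 higher, with Nid1 (nidogen) at 300 and 101 UMIs (-1.03) and Hspg2 (perlecan) at 108 and 108 (0.54). Among 27 growth factor and Wnt genes, 3 were lower and 2 higher. Igf1 had 593 and 121 UMIs (665 and 198 CPM), a log2 ratio of -1.75 (-2.04 to -1.47), and the binding protein genes were not alike, with Igfbp5 at 779 and 261 UMIs (-1.03), Igfbp6 at 455 and 615 (0.98) and Igfbp3 above. Among 16 junction genes, 3 were lower and 2 higher, with Cdh11, the cadherin of mesenchyme, at 658 and 205 UMIs (-1.14). None of 22 transcription factor genes was at least 2-fold lower or higher, with Zic2 nearest at 43 and 59 UMIs (1.00).

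Of 23 genes that respond to glucocorticoids, 8 were at least 2-fold higher in AEVs members and 1 lower, with a median log2 ratio of 0.80, and of 0.65 without clusters 3 and 7. Cdkn1a, the cell cycle inhibitor gene that p53 also drives, had 27 and 93 UMIs (30.3 and 152 CPM), a log2 ratio of 2.33 (1.70 to 3.00). The list also holds Hif3a, Cebpb and Apod above, while Dusp1, a phosphatase gene that is itself immediate-early, had 157 and 45 UMIs (-1.26). In all other nuclei Cdkn1a had a log2 ratio of 1.88, and the list summed to 3234 CPM in PBS and 8665 CPM in AEVs, against 9358 and 20490.0 CPM in members. Apod carried most of the difference in members, where the list without it summed to 4250.0 and 5447 CPM. Clock genes moved in both directions, with 2 higher and 4 lower of 17. Nr1d1, a repressor of the clock, had 21 and 46 UMIs (1.67), and Arntl and Nfil3, which peak at another phase, had 48 and 15 (-1.13) and 30 and 5 (-2.04). Of 9 p53 target genes 1, Cdkn1a, was 2-fold higher, with a median of 0.54.

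Immune genes were split. Of 12 antigen presentation genes, 7 were at least 2-fold lower in AEVs members and none higher, with a median log2 ratio of -1.14. H2-Aa had 41 and 4 UMIs, H2-Eb1 23 and 0 and H2-Ab1 21 and 0, all of MHC class II, and the class I genes B2m, H2-D1 and H2-K1 had -0.26, -0.28 and -0.43. In other nuclei H2-Aa had -2.42. Macrophage markers moved the same way. The 9 genes of the microglia and macrophage list summed to 556 CPM in PBS and 237 CPM in AEVs members, against 512 and 414 in other nuclei, with 6 at least 2-fold lower and none at 0, and Gpnmb had 202 and 33 UMIs. Without clusters 3 and 7 the median of the antigen presentation list was -1.08. The part of macrophage RNA in it was not tested. Of 20 interferon-stimulated genes, 2 were higher and none lower, with medians of 0.75 on the Slc7a11 side and -0.41 on the Slc47a1 side. Oligodendrocyte genes summed to 1506 and 2433 CPM in members, against 5238 and 4301 CPM in other nuclei. Without cluster 7, but with cluster 6 kept, the sums in members were 722 and 1015 CPM. With cluster 7 kept, the median log2 ratio was 1.15 on the Slc7a11 side and -0.84 on the Slc47a1 side. Of the 31 nuclei of cluster 7, 8 lay on the Slc47a1 side, and the side medians without it were not computed. In members erythroid genes summed to 480 and 278 CPM, against 53.2 and 133 in other nuclei. Of the cytokine and adhesion genes, Il33, an alarmin gene, had 73 and 24 UMIs (-1.06). Ccl2 and Ccl7 had 50 and 99 and 16 and 56 UMIs, of which 1 AEVs nucleus held 96.0% and 83.9%.

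**Figure D5:**
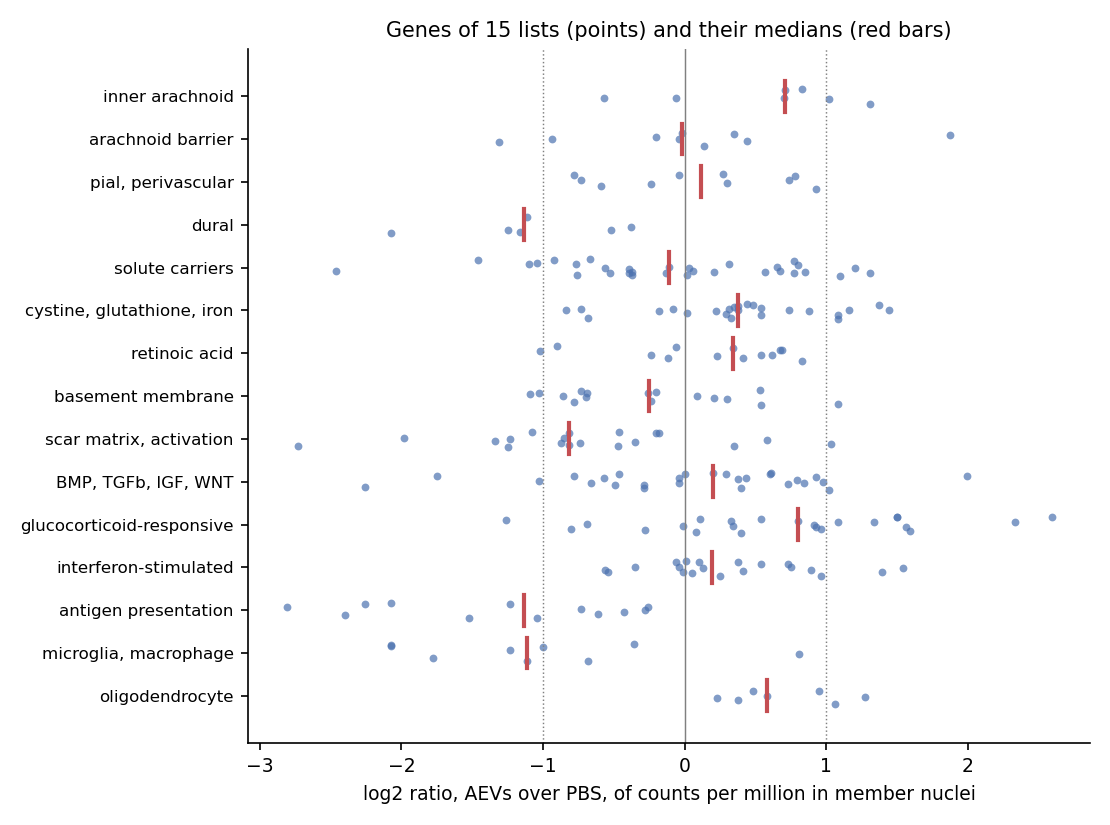
Log2 ratio of CPM, AEVs over PBS, of each gene with at least 20 UMIs (points) in 15 gene lists in member nuclei, with the median of each list as a red bar and dotted lines at 2-fold. The glucocorticoid-responsive median lies at 0.80 and the inner arachnoid median at 0.71, and the antigen presentation and dural medians lie at -1.14.

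Last, the members were set beside the collagen-rich fibroblasts of the same libraries. These were 490 PBS and 94 AEVs nuclei with at least 3 UMIs over Col1a1, Col3a1, Col12a1 and Postn, at least 1 over the 3 fibroblast genes, under 3 over the 4 markers and the same exclusions. Their share was lower in AEVs by more than that of the members, with a ratio of 0.167 (0.133 to 0.209), so members made up 36.9% (33.5 to 40.4) of both kinds together in PBS and 71.4% (66.2 to 76.3) in AEVs. Of 8856 genes, 167 were at least 2-fold higher in members in both libraries (1.89%) and 173 at least 2-fold lower (1.95%). Genes of either rule, such as Ranbp3l and Slc7a11, had to differ. Beyond them the highest were Slc13a3, an importer of dicarboxylates, with 67 UMIs in members against 3 in collagen-rich nuclei in PBS and 72 against 1 in AEVs, and Ppp1r1a, an inhibitor of protein phosphatase 1, with 65 against 6 and 62 against 1. Slc6a20a had 539 against 51 and 629 against 38, and Atp13a5 176 against 33 and 167 against 5. Dcdc2a, Fgfbp1, Sidt1, Slc47a2, Mapk4 and Zkscan2 completed the highest. By list, 11 of 28 solute carriers, 4 of 6 inner arachnoid genes (with Slc6a13, which the rules made higher), 4 of 13 retinoic acid genes and 6 of 26 growth factor and Wnt genes were higher in members in both libraries, and 1, 0, 1 and 0 lower. All 4 erythroid genes were also higher in members.

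Reln and Prx were among the lowest genes in members. Reln, which encodes the secreted protein reelin, had 18 UMIs in members against 179 in collagen-rich nuclei in PBS and 11 against 84 in AEVs, and Mlip had 10 against 77 and 1 against 23. The Schwann cell gene Prx, which encodes periaxin, had 16 against 70 UMIs in PBS and 2 against 42 in AEVs. All 3 Schwann cell genes reported here that had enough UMIs, Prx among them, were 2-fold lower in members in both libraries. With 2 rarer ones they summed to 559 and 1310.0 CPM in collagen-rich nuclei against 202 and 194 CPM in members. With the collagen-rich nuclei that held a UMI of Prx left out, the genes 2-fold lower in members numbered 119. Without clusters 3 and 7 they numbered 307, and the higher genes 183. Of 19 scar matrix genes 5 were lower in members in both libraries and none higher, which the choice by collagen genes made in part. The other lowest genes were Slc35f1, Gfra1, Chl1, Postn, Fndc1, Cnksr2, Sorcs1 and Afap1l2.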

How the data were processed

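Nuclei were counted in 2 libraries, PBS and AEVs, each pooled from 3 mice. The authors deposited whole-number UMI counts, not normalized, for each gene in each barcode. Nuclei came from frozen cord and went through 3-prime droplet capture (SeekGene), per the labels' protocols. Only mm10 and Seurat, without a version, are named per the submitters' processing notes. For the aligner, gene models, ambient RNA and doublets the treatment is not given in the sources used here. Groups were taken from the sample titles. UMIs were summed over member nuclei per library and divided by their total. Levels carry exact Poisson, shares exact Clopper-Pearson and ratios exact conditional binomial intervals at 95% (scipy 1.17.1, python 3.11.15). A ratio with 0 UMIs in a group stands at 3 counts, and none is given where both groups hold 3 or fewer. Members were clustered in scanpy 1.11.5 (1000 variable genes, 15 components, 15 neighbours, Leiden resolution 0.5). Doublets were kept at the main settings and marked with Scrublet. TMM scaling used edgeR 4.0.16 in R 4.3.3.

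Named genes are the 12 highest and 12 lowest ratios, over genes that reach 50 UMIs in the higher library, found in at least 5% of its members and at a level of at least 0.25 of that in the highest other class, without mitochondrial, ribosomal, hemoglobin and predicted genes. Up to 3 highest and 3 lowest genes of each list, the 20 leading genes and the 12 highest and 12 lowest against collagen-rich fibroblasts were added. The members, the 33 lists and these rules were chosen with earlier results of these data known. Some results are not reported here. The scripts were tested on simulated data. Alternatives changed the rule, doublets, depth, scaling and filters.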

Additional observations from a re-analysis of the deposited data

How the results depend on the processing

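No leave-one-out of replicates and no test was possible with 1 library per group. No paired analysis was possible because each group has 1 library and no replicate numbers to pair. The log2 ratio of the share of members, -0.48, was -0.18 without Slc47a1 in the rule, and reversed to 0.74 without members with 3 or more UMIs over the collagen-rich genes. It stayed between -0.63 and -0.23 under the other 14 alternatives.

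The 152 genes 2-fold higher in AEVs members became 101 at a minimum of 6 marker UMIs, 33 after thinning to 1000 UMIs, 529 with a filter of 20 UMIs, 51 with one of 100 UMIs and 88 on the Slc47a1 side. The 154 lower genes became 82 without collagen-bearing members, 47 after thinning, 389 and 91 with those filters. Against collagen-rich fibroblasts, the 173 lower genes became 268 without Slc47a1 in the rule, 105 with stricter limits on other cells' genes, 112 with under 1% mitochondrial UMIs, 61 after thinning and 307 without clusters 3 and 7, and the 167 higher genes 81 after thinning. The cause was not tested, beyond the fewer UMIs that thinning and filters leave. The 8 clusters became 11 at resolution 1.

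Of named genes and list medians of at least 0.5, reversed values were those of Atp6v0d2 (0.12 without Slc7a11 in the rule, 0.71 without clusters 3 and 7, 0.97 on the Slc47a1 side), Slit3 (-0.50 without Slc47a1 in the rule, -0.74 on the Slc7a11 side), the inner arachnoid median (-0.90 on the Slc47a1 side) and Slc47a2 against collagen-rich fibroblasts (-4.20 without Slc47a1 in the rule). On the Slc47a1 side other signs were also held by the medians of the interferon (0.19 to -0.41), oligodendrocyte (0.58 to -0.84) and erythroid (-0.70 to 1.22) lists. The other 22 named genes kept their direction under every alternative that gave a value. Median-ratio and TMM scaling each moved all log2 ratios by -0.05. The alternatives without clusters 3 and 7, by side, with an equal cluster mix and without Prx nuclei were chosen after seeing the data. With 235 to 286 nuclei per library, genes under 20 UMIs in both libraries together were left out of the lists, and ratios within a side can rest on fewer, such as 6 and 3 for Slit3.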
